A study of Mus musculus with 6 samples.

Results

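BTZ-treated myoblasts in growth medium were compared with untreated myoblasts in the same medium, a comparison of 2 of the 6 arrays in the series. The cells were C2C12, an established line of mouse myoblasts, muscle precursors that multiply while serum is plentiful and join into myotubes once it is reduced. Growth medium was DMEM with 10% FBS, and the treated culture received 10 nM BTZ for 24 h. The labels give BTZ only as an abbreviation, most often used for bortezomib, a proteasome inhibitor. Another growth medium culture received TNF-α, an inflammatory cytokine, at 50 ng/ml for 24 h. The other cultures were moved to 2% differentiation medium and harvested on day 5, either untreated or after TNF-α at 50 ng/ml or BTZ at 10 nM added on day 4. All 6 cultures were of this line, total RNA of each was read on 1 Affymetrix whole-transcript array, and no group had a replicate. Every difference given here is therefore the log2 value of the BTZ array minus that of the untreated array, with no error and no test, and nothing separates treatment from the spread between cultures.

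The proteasome is the barrel-shaped protease that degrades proteins tagged with ubiquitin. When it is blocked, tagged and misfolded proteins build up. Cells are known to answer with heat shock chaperones, with new proteasome subunits made under the transcription factor NRF1 (Nfe2l1), with the ATF4 arm of the integrated stress response, and with the antioxidant factor NRF2. Proteasome activity is also needed to complete mitosis, and the degradation of muscle protein by this route is one part of muscle wasting.

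Genes were compared where their highest array reached 5.06, the median of all deposited values, which left 13652 of 22180 genes. Of these, 681 (4.99%) were at least 2-fold higher with BTZ and 841 (6.16%) at least 2-fold lower. Together 1522 (11.1%) lay past 2-fold in either direction. The shares of 4.99% higher and 6.16% lower are the background for every list count below. The median difference over all genes was 0.02, and the middle 50% of genes lay between -0.32 and 0.36. Larger differences were more often downward: 46 genes reached a 4-fold increase and 162 a 4-fold decrease, and past 8-fold the counts were 3 and 28. In 72 of the higher and 96 of the lower genes the weaker array was under the floor, where a fold is less certain. A shift of all arrays to a common median gave 590 higher and 913 lower genes, and quantile normalization gave 544 and 963. Another 8413 probe sets above the floor carried no gene symbol and were set aside; 1073 of them (12.8%) were 2-fold or more higher with BTZ and 360 (4.28%) lower.

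**Figure D1:**
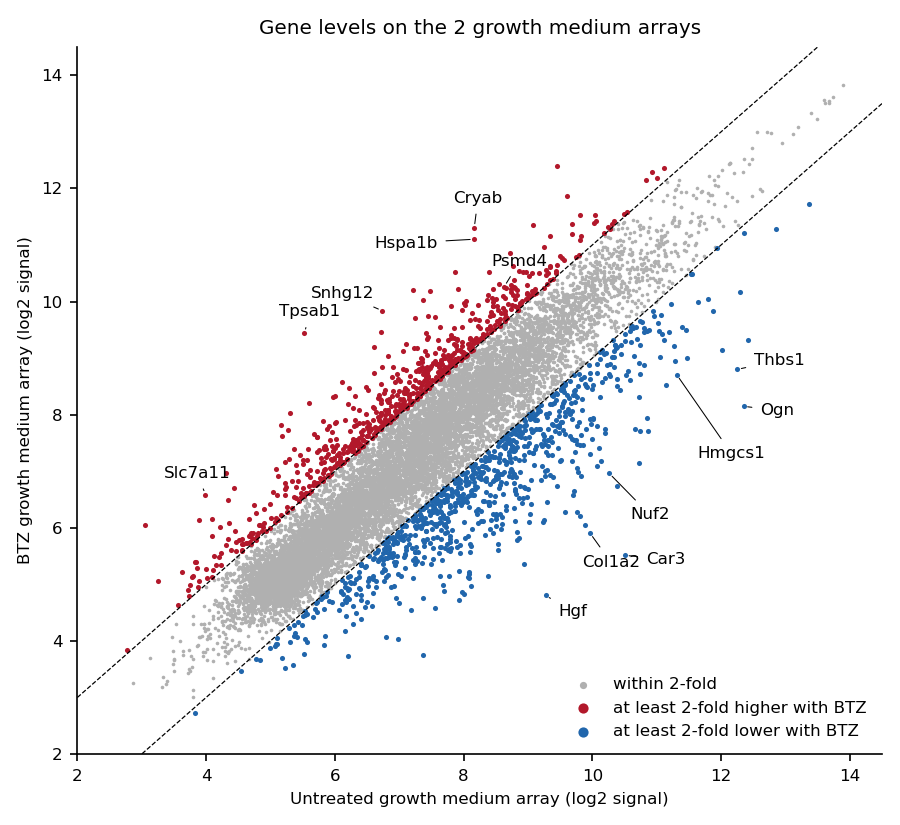
Log2 signal of each of 13652 genes on the untreated growth medium array (horizontal axis) and on the BTZ growth medium array (vertical axis). Dashed lines mark a 2-fold difference; 681 genes lie on or above the upper line and 841 on or below the lower line, and the points farthest from the lines are lower with BTZ, such as Car3 at -4.995 and Hgf at -4.47.

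All 8 listed myoblast markers reached the floor on both arrays, but each was lower with BTZ. Their summed log2 level was 74.2 without and 66.1 with BTZ. Myf5, Cdh2, Cdh15 and Des were past 2-fold lower, at -1.84, -1.41, -1.38 and -1.13, and Itga7 differed least, at -0.13. Of 6 myotube markers 4 reached the floor on each of the 3 growth medium arrays, with summed levels of 32.8 untreated and 30.9 with BTZ. None of 6 endothelial markers reached it on any array. Of 6 macrophage markers 1 reached it untreated and 2 with BTZ. The lysosomal protein Cd68 stood at 6.57 and 7.74, whereas Ptprc, which defines blood cells, was under the floor at 3.38 and 3.34. Adipocyte markers reached the floor in 2 of 6 on both arrays, and neural markers in 4 of 5 measured untreated and 2 of 5 with BTZ. The 4 marker genes of this comparison, chosen with earlier results of these arrays known, Hspa1b, Cryab, Psmd4 and Col1a2, differed by 2.93, 3.14, 1.63 and -4.06.

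The gene with the largest upward difference was Tpsab1, a mast cell tryptase, at 5.53 untreated, 7.68 with TNF-α and 9.44 with BTZ, a difference of 3.91. It was followed by the small heat shock protein Cryab (3.14), the small nucleolar RNA host gene Snhg12 (3.10), the protease inhibitor Serpinb9e (2.998) and the placental hormone family member Prl2c5 (2.99). Hspa1b, the inducible HSP70, was next at 2.93. Then came Ptprn, a protein of secretory granules (2.74), the zinc finger gene Zfp945 (2.72), the TNF receptor family member Eda2r (2.71), Prr9 (2.66), the secreted carbonic anhydrase Car6 (2.66), the stress kinase Plk3 (2.65), the cystine transporter Slc7a11 (2.60), the phosphatase subunit Ppp1r15a (2.60) and Napb, a factor of vesicle fusion (2.60). On the BTZ array each of these 15 genes was also past 2-fold above the TNF-α array of the same medium. Levels before treatment were low for some of them: Prl2c5 stood at 3.05 and 6.04, Slc7a11 at 3.99 and 6.59, and Car6 at 4.31 and 6.97, all with the untreated array under the floor. Prl2c5, Serpinb9e and Tpsab1 belong to families of closely similar genes, so their probe sets may also read relatives.

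The largest downward differences were in the carbonic anhydrase Car3, the growth factor Hgf, and matrix genes. Car3 stood at 10.51 untreated, 5.62 with TNF-α and 5.51 with BTZ, a difference of -4.995. Hgf, a ligand that activates muscle satellite cells, stood at 9.28, 8.82 and 4.80 on the same arrays, a difference of -4.47. For Car3 both treated arrays were low, whereas for Hgf the BTZ array alone was. The matrix proteoglycan Ogn (-4.20), the type I collagen chain Col1a2 (-4.06), Capn6 (-3.84), the LIM protein Crip1 (-3.64), the proteoglycan Omd (-3.62), the linker histone H1f5 (-3.61), the matrix protease Adamts5 (-3.59), the type III collagen Col3a1 (-3.58), the membrane trafficking protein Ehd2 (-3.48), the secreted Thbs1 (-3.45), the kinetochore protein Nuf2 (-3.30), Islr (-3.29) and the carbonic anhydrase Car2 (-3.24) completed the lowest 15. Of these 15 genes 10 were also past 2-fold below the TNF-α array.

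**Figure D2:**
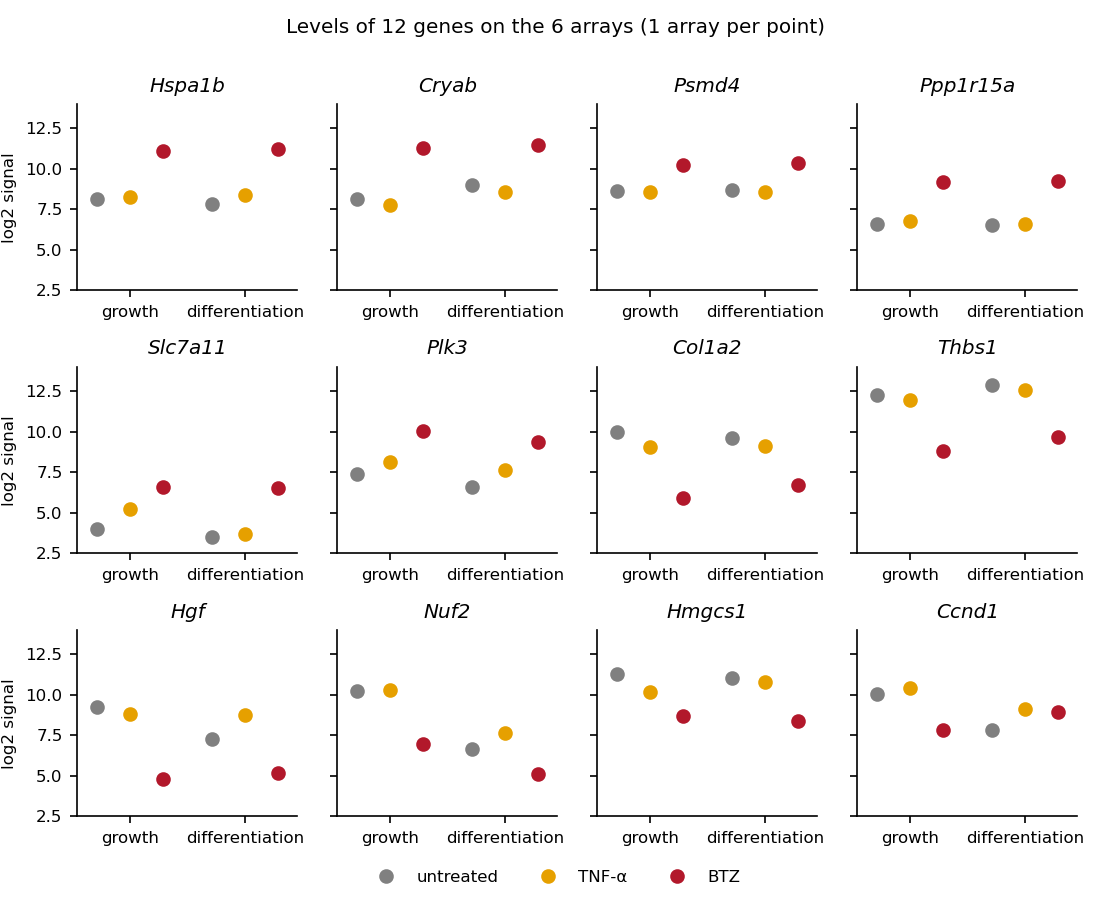
Log2 signal of 12 genes on the 6 arrays, 1 array per point, with growth medium to the left and differentiation medium to the right in each panel. Hspa1b reads 8.17 untreated and 11.10 with BTZ in growth medium, Hgf reads 9.28 and 4.80, and Ccnd1 is the panel in which the BTZ point is below the untreated point in growth medium (10.08 and 7.80) and above it in differentiation medium (7.86 and 8.96).

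Subunits of the proteasome itself were higher with BTZ. Of 35 listed subunits 33 were measured and all 33 passed the floor; each had a positive difference, 8 passed 2-fold upward and 0 downward, against 4.99% of all genes higher. Their median was 0.87, beside 0.02 over all genes. The list counts the assembly chaperones Psmd5, Psmd9 and Psmd10 as subunits, here and below. Many members lay close to the 2-fold line, so the count moved with the scaling, to 5 with arrays shifted to a common median and to 4 after quantile normalization, with all 33 differences still positive under both. With the TNF-α array as comparator 2 were past 2-fold.

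Psmd4, the receptor that binds ubiquitin chains on the regulatory particle, showed the largest difference among subunits. It stood at 8.63 untreated, 8.58 with TNF-α and 10.26 with BTZ, or 3.10-fold. The 6 ATPases that unfold substrates had a median of 0.94, led by Psmc4 (9.56 and 10.74), Psmc6 (10.54 and 11.59) and Psmc5 (8.56 and 9.57). The 14 other genes listed with the regulatory particle had a median of 0.88 with 2 past 2-fold, Psmd4 and the assembly chaperone Psmd9 (6.79 and 7.93). In the core particle, which holds the proteolytic sites, the median over 13 subunits was 0.84. The caspase-like site Psmb6 (9.32 and 10.50), the trypsin-like site Psmb7 (10.18 and 11.21) and Psmb2 (8.84 and 9.85) passed 2-fold. Under quantile normalization only Psmb6 of these 3 and Psmc4 of the ATPases remained past 2-fold, and with the TNF-α array as comparator only Psmc4 did. Psmb5, the chymotrypsin-like site that bortezomib binds, stood at 8.86 untreated and 9.73 with BTZ, a difference of 0.86. The smallest differences were those of Psmb3 (0.19), Psmd10 (0.19) and Psmd7 (0.20).

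Activators and the assembly factors listed apart from the subunits did not share the pattern as a group. Of 11 such genes 1 was past 2-fold, the activator Psme4 (9.35 and 10.61), and the median was 0.22. The maturation factor Pomp differed by 0.80, the activator subunits Psme1, Psme2 and Psme3 by 0.22, 0.35 and 0.12, and the assembly chaperone Psmg1 by -0.61. Among the 3 immunoproteasome subunits, which replace the active sites under interferon, Psmb8 stood at 5.47 and 5.70 and Psmb10 at 6.98 and 6.18, and Psmb9 was under the floor on every array. On the TNF-α array Psmb10 stood at 8.40.

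Genes that handle ubiquitin or carry substrates to the proteasome were mixed. Of 28 measured, 7 stood at least 2-fold higher with BTZ and 1 at least 2-fold lower (median 0.18); after quantile normalization, and with the TNF-α array as comparator, the higher ones numbered 4. The arsenite-inducible proteasome partner Zfand2a stood at 8.71 untreated, 8.81 with TNF-α and 10.86 with BTZ. Ufd1, a cofactor of the p97 unfoldase, stood at 8.46, 8.60 and 10.23 on the same arrays, and Zfand5, an activator of the proteasome, at 8.99, 8.92 and 10.29. In each of these the BTZ array was the high one of the growth medium arrays. The member that was lower was Ube2c, the ubiquitin-conjugating enzyme of the mitotic anaphase-promoting complex, at 9.30 untreated and 6.46 with BTZ. Uchl1 had a mean difference of 1.16, but its 2 probe sets gave -0.39 and 2.71. Of the listed symbols, which include an older symbol of Ufd1, 10 had no probe set of their own.

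Heat shock chaperones were higher in part. Of 74 genes above the floor in 4 chaperone lists, 12 stood at least 2-fold higher and 3 at least 2-fold lower (median 0.46). Over all genes 4.99% were higher and 6.16% lower, so the lower count was near the background. In the HSP70 and HSP110 list, which includes their cofactors, 5 of 23 were higher and 1 lower, with a median of 0.53. Hspa1b stood at 8.17 untreated, 8.29 with TNF-α and 11.10 with BTZ, or 7.65-fold. Its near-identical neighbour Hspa1a, whose signal these probes may share, stood at 6.02, 6.33 and 7.58. The nucleotide exchange factor Hsph1 differed by 1.80, the heat shock factor Hsf2 by 1.31 and the HSP90 partner Chordc1 by 1.12. The constitutive Hspa8 differed by 0.88 (mean of 4 probe sets), the mitochondrial Hspa9 by 0.31, and the atypical Hspa12a by -1.46.

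Among small heat shock proteins, which hold unfolding proteins until they can be refolded, 3 of 8 passed 2-fold upward and 1 downward. Cryab stood at 8.17 untreated, 7.75 with TNF-α and 11.30 with BTZ, Hspb8 at 8.74, 8.74 and 10.17, and Hspb1 at 6.49, 6.48 and 7.63. Hspb6, abundant in muscle, was lower at 8.98 untreated and 7.82 with BTZ. The median of the 8 was 0.04, and its sign changed with the scaling. Of 24 DNAJ co-chaperones, which pass clients to HSP70, 3 were higher and 1 lower (median 0.48). These were Dnaja4 (6.21 and 8.20), Dnajb1 (8.92 and 10.53) and Dnajb2 (6.08 and 7.24), with Dnajc10 of the endoplasmic reticulum lower at 10.38 and 9.20. In the HSP90 and chaperonin list 1 of 19 was past 2-fold, the HSP90 activator Ahsa2 (8.69 and 9.95), with a median of 0.41. That count was near the 4.99% of all genes that were higher.

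**Figure D3:**
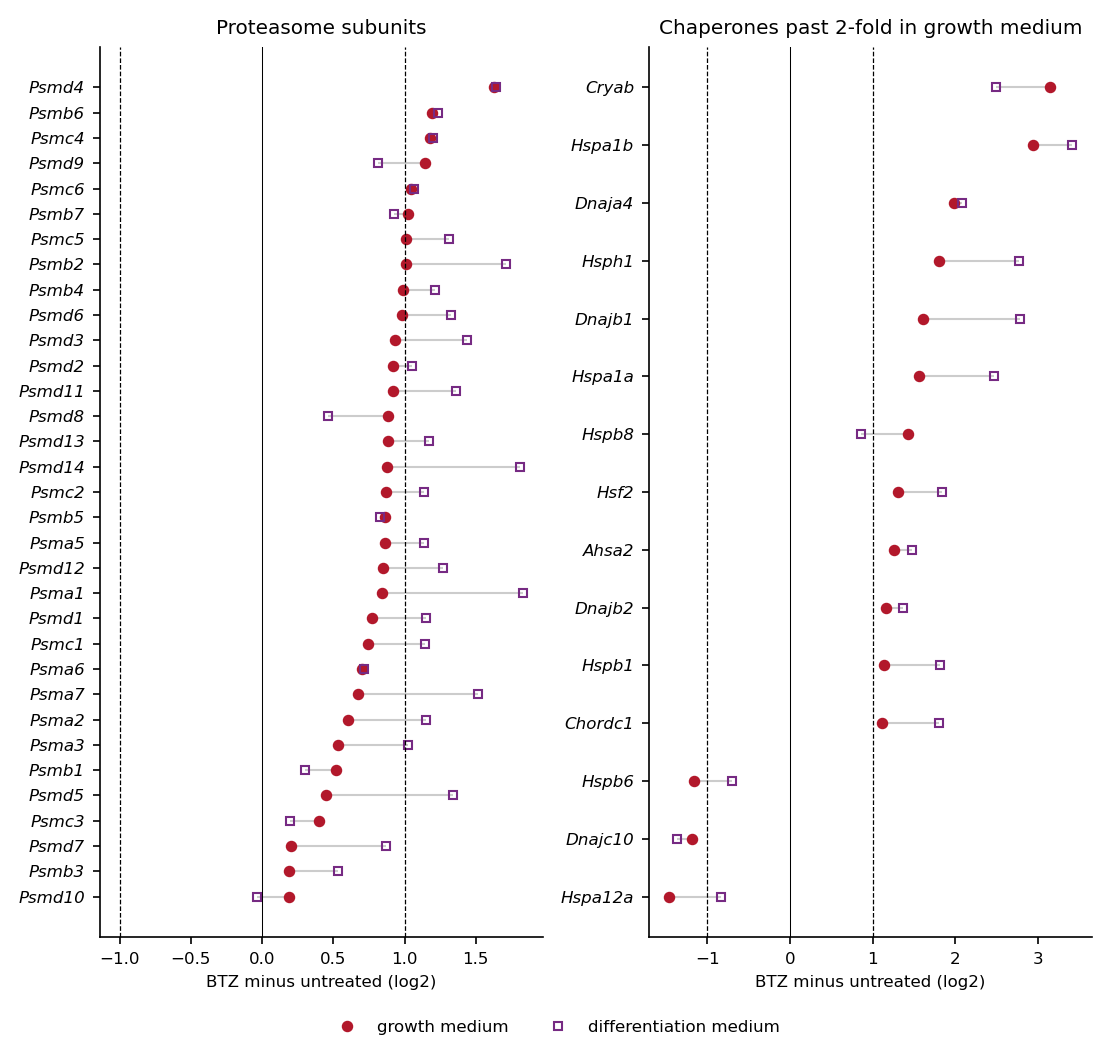
Log2 difference of BTZ from untreated for the 33 proteasome subunits (left) and for the 15 chaperone genes past 2-fold in growth medium (right); filled circles are growth medium and open squares differentiation medium, with a line joining them. All 33 subunits lie above 0 in growth medium, between 0.19 and 1.63, and Cryab and Hspb8 are among the genes whose growth medium value is the higher of the 2.

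The heat shock factors bind repeated units in promoters, so the promoters of these genes were searched in windows of 250 bases before and 50 after the start, from RefSeq on GRCm38.p6. A window existed for 63 of the 74 chaperone genes, and 2 facing units, GAANNTTC on either strand, were present in 15 of 63 (23.8%), against 6.82% of genes above the floor and 9.04% of all 27025 genes with a window. A longer match that adds another unit in register was present in 5 of 63 (7.94%), against 0.554% of genes above the floor and 0.662% of all genes. Past 2-fold either way in expression were 8 of the 15 genes with 2 units and 6 of the 48 without, with medians of 0.90 and 0.37. The chaperone genes with the largest difference among those whose match lies before the start are printed here, Hspa1b at chr17:34959265-34959412 (minus strand) for 2 units and Dnajb6 at chr5:29735782-29735897 (plus strand) for the longer match. Capitals mark the units and, in these and all later promoters, any CCAAT box (ATTGG on the other strand). The match starts 104 bases before the start of Hspa1b and 46 bases before that of Dnajb6, which stood at 7.03 untreated and 7.93 with BTZ.
Hspa1b: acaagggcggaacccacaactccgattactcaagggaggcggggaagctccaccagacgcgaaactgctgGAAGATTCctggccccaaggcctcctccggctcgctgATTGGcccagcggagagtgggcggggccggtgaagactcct
Dnajb6: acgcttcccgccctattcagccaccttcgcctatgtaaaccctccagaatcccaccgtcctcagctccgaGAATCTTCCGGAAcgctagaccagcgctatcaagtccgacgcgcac

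The integrated stress response slows protein synthesis and, through ATF4, raises genes of repair and amino acid supply. Of 22 of its genes 7 passed 2-fold upward and 0 downward (median 0.45), against 4.99% and 6.16% of all genes. Ppp1r15a, which restores translation, stood at 6.60 untreated, 6.77 with TNF-α and 9.20 with BTZ. The stress sensor Sesn2 stood at 6.002, 6.61 and 8.32, and the transcription factor Atf3 at 7.06, 7.33 and 9.13. Nupr1, Ddit3 (CHOP), the kinase-like Trib3 and the glutathione-degrading enzyme Chac1 differed by 1.66, 1.54, 1.39 and 1.18. In all 7 the BTZ array was past 2-fold above the TNF-α array too.

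Amino acid supply genes were divided: 4 of 22 passed 2-fold upward and 1 downward, and the median was -0.15. Slc7a11 stood at 3.99 untreated, 5.24 with TNF-α and 6.59 with BTZ, and its 2 probe sets gave differences of 1.56 and 3.64. The mitochondrial folate enzyme Aldh1l2 (8.18 and 9.68), the serine enzyme Psph (7.62 and 8.73) and the transporter subunit Slc3a2 (10.30 and 11.37) were also past 2-fold, and the folate enzyme Mthfd1 was lower (8.81 and 7.66). Of 17 aminoacyl-tRNA synthetases 2 were past 2-fold, Farsa (7.79 and 8.85) and Wars (9.01 and 10.05), with a median of 0.44. After quantile normalization, and with the TNF-α array as comparator, 0 were past 2-fold higher. Chaperones and degradation factors of the endoplasmic reticulum were near the background, with 1 of 25 higher, the stress sensor Ern1 (7.60 and 8.75), and a median of 0.13. The lumenal chaperone Hspa5 stood at 10.16 and 10.97.

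The composite element TGATGCAA, bound by dimers of C/EBP and ATF proteins, was searched on both strands in the same windows. It was present in 9 of 39 integrated stress and amino acid supply genes (23.1%), against 0.769% of genes above the floor and 1.03% of all genes. Past 2-fold in expression were 4 of these 9 genes and 7 of the 30 without the element, with medians of 0.63 and 0.17. The pair with the largest differences among those with a match are shown, Slc7a11 at chr3:50443614-50443749 (minus strand) with 2 matches that start 66 and 47 bases before the start, and Atf3 at chr1:191183366-191183513 (minus strand) with 1 match 110 bases before it. Capitals mark the element in either orientation.
Slc7a11: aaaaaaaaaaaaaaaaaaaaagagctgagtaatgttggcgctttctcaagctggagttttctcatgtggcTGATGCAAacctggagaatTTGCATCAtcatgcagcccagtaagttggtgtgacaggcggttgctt
Atf3: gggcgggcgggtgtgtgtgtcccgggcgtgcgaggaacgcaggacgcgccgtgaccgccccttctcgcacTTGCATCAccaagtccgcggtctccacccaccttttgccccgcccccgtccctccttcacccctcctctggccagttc

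Targets of NRF2, the factor that induces antioxidant enzymes, were higher in part. Of 23 genes 6 passed 2-fold upward and 0 downward (median 0.58), against 4.99% and 6.16% of all genes. Slc7a11 is on this list too. The heme pathway enzyme Blvrb stood at 7.25 untreated, 7.15 with TNF-α and 9.71 with BTZ. The peroxiredoxin repair enzyme Srxn1 stood at 8.66, 8.38 and 10.23, and Osgin1 at 7.35, 6.73 and 8.84. The exporter Abcc4 (7.43 and 8.74) and the pentose phosphate enzyme Taldo1 (8.10 and 9.35) completed the 6. Nqo1, a widely used NRF2 target, went the other way, at 9.52 untreated, 9.02 with TNF-α and 8.65 with BTZ.

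The core of the antioxidant response element, TGACNNNGC on either strand, is a short motif present in 16.4% of genes above the floor and 14% of all genes. NRF1 binds the same core at proteasome genes. It was found in 7 of 18 NRF2 targets (38.9%) and in 5 of 27 proteasome subunits (18.5%). Among NRF2 targets 2 of 7 with the core and 4 of 11 without it were past 2-fold in expression, with medians of 0.61 and 0.08. Among subunits these were 3 of 5 and 3 of 22, with medians of 1.05 and 0.87. The subunit and the NRF2 target with the largest differences among those with a match before the start are shown, Psmb6 at chr11:70525278-70525356 (plus strand), where the match ends at the base before the start, and Abcc4 at chr14:118706220-118706314 (minus strand), where it starts 25 bases before. Capitals mark the core in either orientation.
Psmb6: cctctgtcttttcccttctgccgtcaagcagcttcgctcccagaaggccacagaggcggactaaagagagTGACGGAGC
Abcc4: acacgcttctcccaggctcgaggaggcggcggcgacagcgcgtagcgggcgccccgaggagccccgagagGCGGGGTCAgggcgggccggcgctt

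Autophagy is the other route by which a cell clears aggregated protein. Of 33 autophagy genes 8 passed 2-fold upward and 0 downward, against 4.99% and 6.16% of all genes. Among the 33, 29 had a positive difference, and the median was 0.61. Atg14, a subunit of the lipid kinase that starts autophagosomes, stood at 5.98 untreated, 6.25 with TNF-α and 8.31 with BTZ. The membrane anchors Gabarapl1 (8.45 and 9.99) and Atg12 (7.16 and 8.68), the phosphoinositide reader Wipi2 (7.89 and 9.33) and the cargo receptor Nbr1 (8.64 and 10.06) followed. A list of ubiquitin ligases and other genes tied to muscle wasting had 1 of 13 higher, the ligase Traf6 (6.88 and 7.97), and a median of -0.05. That count was near the share of all genes.

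Targets of p53 had 12 of 29 past 2-fold upward and 0 downward (median 0.34), against 4.99% and 6.16% of all genes. The death receptor relative Eda2r stood at 5.31 untreated, 6.21 with TNF-α and 8.03 with BTZ, Plk3 at 7.37, 8.17 and 10.03, and Mdm2, the ligase that limits p53, at 8.76, 9.07 and 10.63. The TRAIL receptor Tnfrsf10b differed by 1.75, and Sesn2, listed under the integrated stress response too, by 2.32. Of the 29, 20 had a positive and 9 a negative difference, the latter including Fas (-0.94), Cd82 (-0.67) and Bbc3 (-0.45). With the TNF-α array as comparator 7 of the 29 were past 2-fold higher and 2 past 2-fold lower. In the list of BCL2 relatives and caspase inhibitors 1 of 22 was higher, the BH3-only protein Pmaip1 (5.86 and 7.26), and 1 lower, Bok, at -1.19. Both counts were near the shares of all genes. The median of that list was 0.03, with a sign that changed with the scaling.

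Immediate early and AP-1 genes, which answer serum and stress within minutes, were split into 7 higher and 6 lower of 33. Ier3 stood at 9.61 untreated, 11.02 with TNF-α and 11.87 with BTZ. Egr1 stood at 9.38, 8.07 and 6.90, Fos at 7.52, 6.38 and 5.82, and Klf10 at 8.34, 8.55 and 6.85. Thus Atf3 and Ier3 were the high members and Egr1 and Fos the low ones at 24 h. Of 7 genes for metallothioneins and zinc handling 0 were higher and 1 lower, the transporter Slc39a10 at -1.03, with Mt1 at -0.52 and Mt2 at -0.49.

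**Figure D4:**
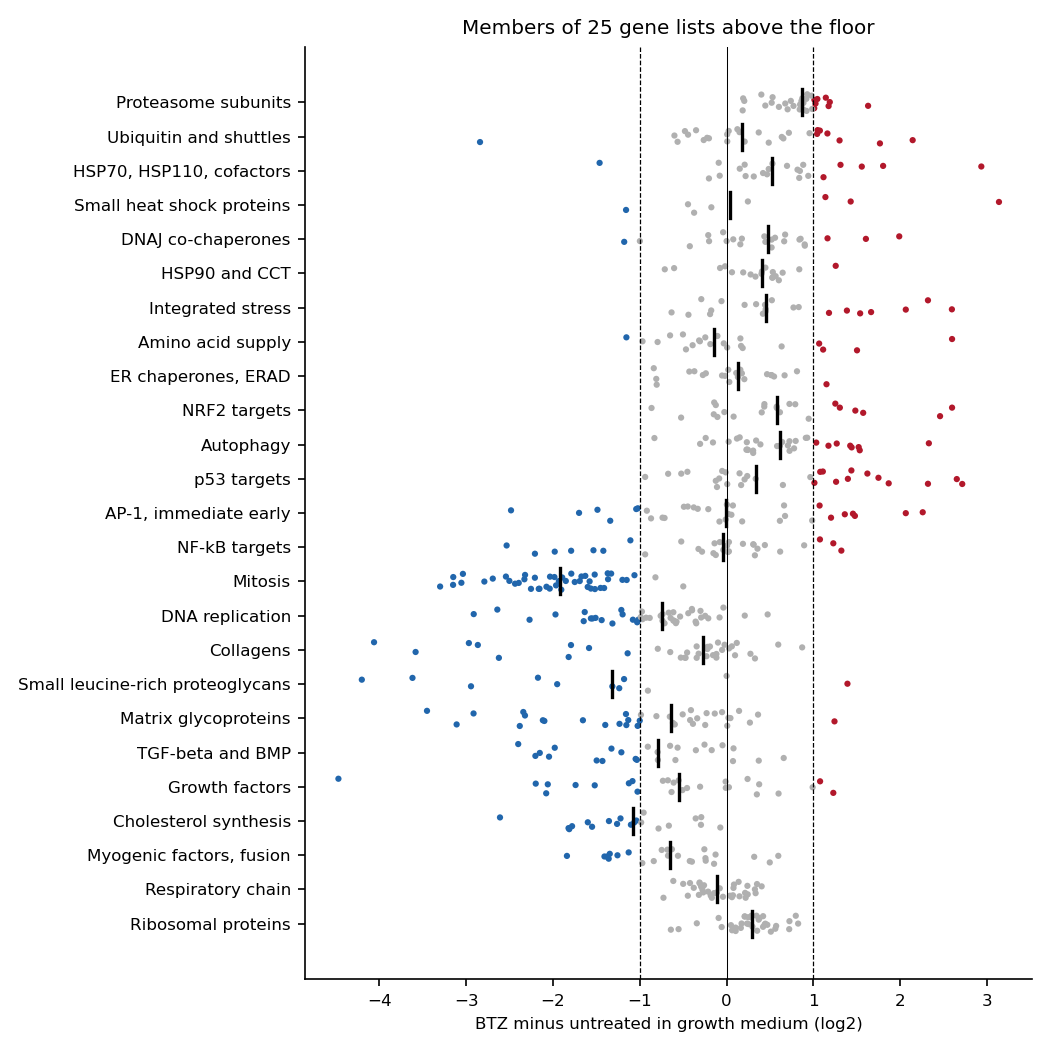
Log2 difference of BTZ from untreated in growth medium for the members above the floor of 25 gene lists; each point is a gene, red at least 2-fold higher, blue at least 2-fold lower, grey between, and the black bar is the list's median. Mitosis lies farthest to the left with a median of -1.92, and proteasome subunits farthest to the right with a median of 0.87.

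Genes of cell division were lower with BTZ almost without exception. Of 46 mitosis genes all had a negative difference and 44 were at least 2-fold lower, against 6.16% of all genes, with a median of -1.92. Nuf2, which ties kinetochores to microtubules, stood at 10.26 untreated, 10.29 with TNF-α and 6.96 with BTZ. The survival and spindle protein Birc5 stood at 8.11, 8.57 and 4.96, and cyclin Ccna2 at 10.87, 11.04 and 7.72. In each the BTZ array was the low one. The polo kinase Plk1 differed by -3.05 and the cytokinesis protein Anln by -3.04. Of 14 mitotic kinesins, the motors that build the spindle, 12 were lower with a median of -2.03, led by Kif11 (9.70 and 6.57). These arrays read bulk RNA, in which fewer dividing cells and less of a transcript per cell cannot be told apart.

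Replication genes were lower to a smaller degree. Of 46, 16 passed 2-fold downward and 0 upward, 44 were negative and the median was -0.74. The repressor E2f8 stood at 8.84 untreated, 8.54 with TNF-α and 5.92 with BTZ, thymidine kinase Tk1 at 9.05, 9.71 and 6.41, and Uhrf1, which maintains DNA methylation, at 8.51, 8.84 and 6.24. Set against the TNF-α array, 31 of the 46 were past 2-fold lower. In the list of G1 regulators 6 of 25 were lower and 2 higher, with a median of -0.45. With the TNF-α array as comparator 9 were lower and 0 higher. The lower ones included the kinase inhibitors Cdkn2d (-1.80) and Cdkn2c (-1.32) and the RB relative Rbl1 (-1.65). The higher ones were the kinase inhibitor Cdkn1a (1.44) and Ccng1 (1.01). Cyclin D1 (Ccnd1) stood at 10.08 untreated, 10.41 with TNF-α and 7.80 with BTZ, and its kinase Cdk6 at 8.88, 9.65 and 6.74. Most histone genes were listed under older symbols, and few of those listed were measured. Of 8 above the floor 7 were lower, among them H1f5 (9.81 and 6.20), H2ax (9.29 and 7.34) and H2ac20 (9.58 and 7.66). A wider list by current symbol, added afterwards, had 16 above the floor, 13 of them lower and 0 higher, with a median of -1.62.

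Genes of the late cell cycle carry a cell cycle homology region, TTTGAA or TTCGAA, often with CCAAT boxes upstream. TTTGAA was present on either strand in 24 of 38 mitosis genes with a window (63.2%), against 14.2% of genes above the floor and 20.2% of all genes; TTCGAA was present in 5 of 38 (13.2%), against 2.4% and 1.8%. A CCAAT box was present in 27 of 38 (71.1%), against 41.9% and 41.1%. All 24 genes with TTTGAA were past 2-fold lower in expression (median -2.06), as were 12 of the 14 without it (median -1.82). The pair with the largest differences among those with TTTGAA before the start are shown, Ccnb2 at chr9:70421646-70421791 (minus strand), a mitotic cyclin at 9.77 untreated and 6.98 with BTZ, and Top2a at chr11:99024190-99024438 (minus strand), the topoisomerase that untangles chromosomes, at 10.11 and 7.41. The match starts 167 bases before the start of Ccnb2, and 179 and 23 bases before that of Top2a, whose stretch also holds 6 CCAAT boxes. Capitals mark TTTGAA in either orientation and the CCAAT boxes. The TTCGAA form, which the Top2a stretch also holds, is left in lower case.
Ccnb2: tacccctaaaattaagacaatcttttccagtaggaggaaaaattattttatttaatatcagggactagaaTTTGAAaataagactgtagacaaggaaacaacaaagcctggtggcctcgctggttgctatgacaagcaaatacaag
Top2a: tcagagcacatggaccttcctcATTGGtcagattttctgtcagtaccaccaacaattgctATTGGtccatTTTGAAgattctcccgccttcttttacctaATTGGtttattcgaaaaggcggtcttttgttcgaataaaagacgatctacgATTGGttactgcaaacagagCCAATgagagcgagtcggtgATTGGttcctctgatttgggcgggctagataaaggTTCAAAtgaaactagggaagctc

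Extracellular matrix genes were the other large group that was lower. Of 110 listed matrix gene symbols, with older and newer symbols of some genes both listed, 102 were measured and 85 passed the floor. Among the 85, 33 passed 2-fold downward and 2 upward, against 6.16% and 4.99% of all genes. The median was -0.53, or -0.37 when the 17 members under the floor were counted too. With the TNF-α array as comparator 19 were past 2-fold lower. Among 36 collagens above the floor 9 were lower and 0 higher, and the median was only -0.28. Col1a2 stood at 9.97 untreated, 9.03 with TNF-α and 5.90 with BTZ, Col3a1 at 10.73, 9.40 and 7.15, and Col1a1 at 10.07, 9.12 and 7.10. For these chains the order was untreated, TNF-α, BTZ. Col8a1 (8.08 and 5.21), Col12a1 (11.15 and 8.53), Col5a2 (10.13 and 8.31), Col6a3 (9.48 and 7.68), Col6a1 (8.50 and 6.92) and Col6a2 (8.71 and 7.57) completed the 9. The basement membrane chains Col4a1 and Col4a2 differed by -0.47 and -0.65, and Col5a3 and Col18a1 by 0.60 and 0.33.

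Enzymes that mature collagen had 4 of 20 lower and 1 higher. The procollagen processing enhancer Pcolce stood at 10.13 untreated and 7.17 with BTZ, the crosslinking enzyme Lox at 12.01 and 9.14, and the prolyl hydroxylase subunit P4ha3 at 9.45 and 6.74, whereas its relative P4ha2 was higher by 1.15. Of 11 small leucine-rich proteoglycans, which coat collagen fibrils, 8 were lower and 1 higher. The median was -1.32, or -1.18 when the 4 members under the floor were counted too. With both arrays above the floor 4 of 5 were lower, and with the TNF-α array as comparator 1 of 11 was. Ogn stood at 12.35 untreated, 9.001 with TNF-α and 8.15 with BTZ, Omd at 7.37, 4.27 and 3.75, and Aspn at 6.98, 4.12 and 4.04. In these members both treated arrays were low. Dcn (6.92 and 4.97) ended under the floor, the 2 probe sets of Prelp gave -3.99 and -0.35, and the member that was higher, Nyx, started under the floor (4.31 and 5.70).

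Matrix glycoproteins had 16 of 38 lower and 1 higher, with a median of -0.64. Thbs1 stood at 12.25 untreated, 11.94 with TNF-α and 8.80 with BTZ, the binding protein Igfbp5 at 9.25, 6.92 and 6.14, and the calcification inhibitor Mgp at 10.66, 8.98 and 7.74. The basement membrane linker Nid2 was lower (9.85 and 7.47), while its paralog Nid1 was the list's higher member (11.11 and 12.35). Matrix proteases and their inhibitors went both ways, 5 lower and 4 higher of 34. Adamts5 (8.95 and 5.35), Mmp14 (11.27 and 9.21) and Plau (8.66 and 6.80) were lower, and Mmp19 (6.37 and 7.85) and the inhibitor Timp3 (10.06 and 11.43) higher. Of 6 fibroblast markers, 4 of which (Col3a1, Dcn, Lum and Postn) are matrix genes themselves, 5 reached the floor untreated and 4 with BTZ. Their summed level was 43.9 untreated and 37.0 with BTZ, and Lum was under the floor at 3.09 and 3.31. The matrix genes Col3a1, Postn and Dcn differed by -3.58, -2.32 and -1.95, whereas Pdgfra, which is not a matrix gene, differed by 0.63. The part of such cells in the matrix result was not tested.

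Several secreted signals that act on matrix and muscle were lower. In the list of TGF-beta and BMP ligands and targets 11 of 25 were lower and 0 higher, with a median of -0.79. The ligands Tgfb3 (9.73 and 7.33), Bmp4 (9.90 and 7.75) and Tgfb1 (9.46 and 7.42) and the BMP target Id3 (9.75 and 7.55) led it. On the TNF-α array these stood at 7.99, 8.33, 9.44 and 8.47, and with that array as comparator 4 of the 25 were past 2-fold lower. Of 27 growth factors 9 were lower and 2 higher, or 5 and 1 of the 17 with both arrays above the floor. Besides Hgf these included Fgf7 (7.71 untreated, 9.06 with TNF-α and 5.65 with BTZ), Angptl4 (7.52, 9.47 and 5.45) and Igf1 (6.59, 5.20 and 4.85). For Fgf7 and Angptl4 the TNF-α array was the highest and the BTZ array the lowest of the growth medium arrays. Growth factor receptors were near the background of 6.16% lower and 4.99% higher, with 2 of 23 lower, Pdgfrb (10.85 and 7.94) and Lifr (9.58 and 8.04), and 1 higher, Igf2r (7.07 and 8.25). Of 22 Notch pathway genes 4 were lower, among them the targets Hes1 (8.82 and 6.89) and Hey1 (6.76 and 5.36) and the modifier Lfng (8.15 and 6.58).

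Sterol synthesis was lower throughout. All 20 measured cholesterol genes had a negative difference, 12 were at least 2-fold lower, against 6.16% of all genes, and the median was -1.08. Hmgcs1, which commits acetyl units to the pathway, stood at 11.31 untreated, 10.18 with TNF-α and 8.70 with BTZ. Squalene synthase Fdft1 stood at 10.52, 9.87 and 8.70, Nsdhl at 10.73, 9.91 and 8.92, and the feedback regulator Insig1 at 10.56, 9.39 and 8.78. In all of these the TNF-α array lay between the others, and with it as comparator 3 of the 20 were past 2-fold lower. Fatty acid and lipid genes had 8 of 20 lower and 1 higher (median -0.65), or 3 lower against the TNF-α array, with the desaturases Scd1 (11.39 and 9.55) and Fads2 (10.75 and 9.23) and the elongase Elovl6 (10.65 and 9.03) among the low ones.

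The sterol element TCACNCCAC, on either strand, was present in 1 of 16 cholesterol genes with a window, against 1.46% of genes above the floor and 1.44% of all genes. A CCAAT box was present in all 16. The gene with the element, which is also the one with the largest difference, is shown at chr13:119690144-119690292 (plus strand), with the element starting 137 bases before the start. Capitals mark the element and the CCAAT box.
Hmgcs1: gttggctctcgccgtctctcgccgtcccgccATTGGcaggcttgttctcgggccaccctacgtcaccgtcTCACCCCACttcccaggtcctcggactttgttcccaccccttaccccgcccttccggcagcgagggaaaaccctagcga

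Energy and translation genes mostly lay within 2-fold, beside the background of 4.99% higher and 6.16% lower. In glycolysis 3 of 24 were lower and 0 higher (median -0.21): the muscle enolase Eno3 (11.46 and 9.002), Ldha (6.53 and 5.10) and Tpi1 (10.85 and 9.47). None of 36 respiratory chain genes and none of 36 ribosomal protein genes was past 2-fold in either direction, with medians of -0.11 and 0.29. Of the ribosomal protein genes 31 had a positive difference, or 13 with the TNF-α array as comparator. Ribosome biogenesis had 3 of 26 higher (0 against the TNF-α array) and 1 lower, the nucleolar transcription factor Ubtf (9.38 and 7.84). Host genes of small nucleolar RNAs, whose spliced transcripts are normally degraded during translation, had 4 of 17 higher and 0 lower (median 0.49), but 2 under either scaling and 1 with the TNF-α array as comparator. Snhg12 stood at 6.74 untreated, 7.61 with TNF-α and 9.84 with BTZ, and Snhg15 at 6.48, 7.69 and 8.49. The 2 probe sets of another, Zfas1, gave -0.40 and 2.47. None of 8 polyamine genes was past 2-fold, and none of 11 housekeeping genes, whose median was -0.31.

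Carbonic anhydrases, which interconvert carbon dioxide and bicarbonate, had 5 of 11 lower and 1 higher, or 2 lower against the TNF-α array. Besides Car3, Car2 stood at 8.39 untreated, 5.77 with TNF-α and 5.15 with BTZ, Car8 at 9.23, 8.60 and 6.11, and Car5b at 9.31, 8.56 and 7.56. Car3 was the mean of 2 probe sets that were both past 2-fold lower.

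Genes that specify muscle were lower in part, and sarcomere genes mostly lay within 2-fold. Of 24 myogenic regulators and fusion genes 7 were lower and 0 higher, against 6.16% of all genes lower, and the median was -0.65; with the TNF-α array as comparator 4 were lower. The 7 included the myogenic factor Myf5 (8.78 untreated, 8.67 with TNF-α and 6.94 with BTZ) and the cadherins Cdh2 and Cdh15 at -1.41 and -1.38. The sarcomere list, in which 22 of 36 members were above the floor on both arrays, had 1 of 36 higher and 2 lower. Its median was -0.001, and 0.04 with the highest probe set of each gene. Troponin C (Tnnc1) was the higher one at 6.21 and 7.42, and Actn3 (7.70 and 6.45) and Tnnt2 (9.01 and 7.98) were the lower ones. Of 24 actin cytoskeleton genes 23 were negative and 4 at least 2-fold lower (median -0.69), led by the regulatory light chain Myl9 (9.25 and 7.56). Of 16 tubulins and their partners 3 were lower, Tuba1b (7.95 and 5.70) and the stathmins Stmn2 (10.01 and 7.93) and Stmn1 (7.09 and 5.29), and 1 was higher, Map1a at 1.01.

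Inflammatory genes past 2-fold were more often lower than higher. Of 31 NF-kB targets 3 were higher and 7 lower, with a median of -0.04. The higher ones were Ptgs2, Il6 and Mmp13, at 1.32, 1.23 and 1.08. With both arrays above the floor 1 of 25 was higher and 7 lower, and with the TNF-α array as comparator 0 were higher. The chemokine Cxcl5 stood at 8.03 untreated, 10.68 with TNF-α and 5.82 with BTZ, the adhesion molecule Vcam1 at 9.09, 10.86 and 7.11, and Cxcl1 at 6.92, 9.78 and 5.39. In these the TNF-α array was the highest and the BTZ array the lowest of the growth medium arrays. Cxcl12, at 8.60, 8.55 and 6.07, was low with BTZ alone. None of 16 interferon-stimulated genes was past 2-fold, and of 8 MHC class I genes 1 was lower, H2-T23 at -1.07, whose BTZ array was under the floor.

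The same dose of BTZ in differentiation medium, compared with its own untreated array, gave 826 genes at least 2-fold higher (6.05%) and 1216 at least 2-fold lower (8.91%). The comparisons in the 2 media share no array. Of the higher genes 370 were common to both, which is 54.3% of the growth medium genes and 44.8% of the differentiation medium genes. Of the lower genes 478 were common, 56.8% and 39.3% of the lists. Among the 681 genes higher in growth medium 648 had a positive difference in differentiation medium too, and of the 841 lower genes 779 were negative there. Opposite calls past 2-fold in both media were made for 3 and 2 genes. Of the 15 highest genes in growth medium 13 were past 2-fold higher in differentiation medium; the exceptions were Prl2c5 (0.65) and Eda2r (0.75). All 15 of the lowest genes were past 2-fold lower there.

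**Figure D5:**
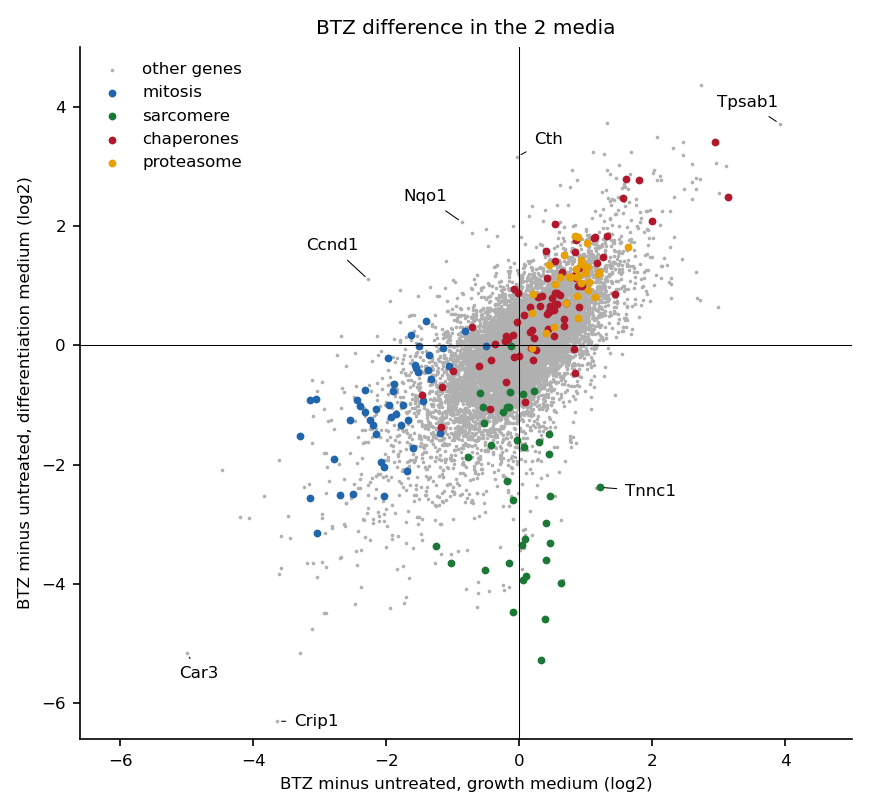
Log2 difference of BTZ from untreated in growth medium (horizontal axis) and in differentiation medium (vertical axis) for 13652 genes, with 4 gene lists coloured. Sarcomere genes extend down the vertical axis near 0 on the horizontal axis (medians -0.001 and -2.33), and mitosis genes lie farther to the left than down (medians -1.92 and -1.01).

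Several groups had different values in the 2 media, and none of these differences could be tested. Proteasome subunits past 2-fold numbered 8 in growth medium and 23 in differentiation medium, with medians of 0.87 and 1.15; Psmd4 gave 1.63 and 1.64. Chaperones numbered 12 and 21. For NRF2 targets the counts were 6 and 14 and the medians 0.58 and 1.78, and for amino acid supply 4 and 10 with medians of -0.15 and 0.93. Autophagy genes went the other way, with 8 higher and 0 lower in growth medium and 4 higher and 3 lower in differentiation medium (medians 0.61 and 0.22). Mitosis genes had 44 and 24 of 46 lower. For sarcomere genes 31 of 36 were lower in differentiation medium against 2 in growth medium. Only 22 of the 36 were above the floor on both growth medium arrays. A gene at or under the floor in untreated growth medium has little room to be lower there, so these counts are not on an equal footing.

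The genes that stood farthest apart between media were these. With the growth medium difference the more positive, the acetylcholine receptor subunit Chrng differed by 0.32 in growth medium and -5.27 in differentiation medium, and the calcium pump Atp2a1 by 0.38 and -4.59. Both were near the floor in untreated growth medium, at 5.25 and 4.96, and at 10.99 and 9.87 in untreated differentiation medium. Myom1, Erbb3 and Actc1 had growth medium differences of 0.63, 0.65 and -0.09 and differentiation medium differences of -3.98, -3.94 and -4.48. With the differentiation medium difference the more positive were Ccnd1 (-2.27 and 1.10), the cysteine-producing enzyme Cth (-0.03 and 3.16), Nqo1 (-0.86 and 2.06), the spindle motor Kif15 (-2.69 and 0.15) and the macrophage growth factor Csf1 (-1.79 and 0.92).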

How the data were processed

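The deposited series table holds 1 value per probe set for each of 6 arrays. The range of the authors' deposited values, about 2 to 14, is that of log2 signals, and they were read as such. Their log base, summarization and normalization were not given in the sources used here. Detection calls were not used. Per the labels' protocols, TRIzol RNA was checked on a Bioanalyzer, column-purified, and biotin-labelled by a whole-transcript kit. Array medians lay between 5.01 and 5.11. No further scaling was applied.

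Of 41345 probe sets 23521 named 1 gene symbol, 1814 several and 16010 none in the platform annotation; 23328 of the first matched RefSeq by Entrez number with 0 differing symbols. Single-symbol probe sets of 1 gene were averaged, which gave 22180 genes, 1082 with several. A gene was kept where its highest array reached 5.06, the median of all values. Past 2-fold means a log2 difference of at least 1 in size. With 1 array per group no test was run, and the number of arrays limits the precision.

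The comparison, the 52 gene lists and the markers were chosen with earlier results of these data known, so they support nothing independently. Genes named are the 15 highest and 15 lowest (without predicted genes, small RNAs and receptor segments), the 5 largest differences of each list, members of the proteasome, HSP70, small heat shock and collagen lists and of short lists, the 5 largest differences between media on each side, markers, and promoters shown by the motif rule; other names were chosen after their values were seen. Alternatives were medians aligned, quantile normalization, no floor, a floor on both arrays, the highest probe set, and the TNF-α array as comparator. Python 3.11.15, pandas 2.3.3, numpy 2.4.6 and matplotlib 3.10.9 were used, and the counting was tested on simulated data.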

Additional observations from a re-analysis of the deposited data

Results flagged for a closer look

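For 2 of the named genes BTZ was past 2-fold in opposite directions in the 2 media, with 1 array on each side, and this difference was not tested. Cyclin D1 (Ccnd1) differed by -2.27 in growth medium and by 1.10 in differentiation medium. Troponin C (Tnnc1) differed by 1.21 in growth medium and by -2.38 in differentiation medium.

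Probe sets with no gene symbol, which no gene value uses, also carried differences between the growth medium arrays. Of 8413 such probe sets above the floor, 1073 (12.8%) were at least 2-fold higher with BTZ and 360 (4.28%) at least 2-fold lower. The higher ones made up 74.9% of those past 2-fold, against 44.7% among genes, and the median difference was 0.17 against 0.02. They were weaker than genes on the whole: on all 6 arrays 60.6% of them stayed under a log2 signal of 7, against 40.3% of genes. What these probe sets measure was not examined.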

How the results depend on the processing

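No paired analysis was possible because each group has 1 array and all are numbered replicate 1, and for the same reason no replicate could be left out. The count of higher proteasome subunits, 8 as deposited, was 5 with medians aligned, 4 after quantile normalization and 2 with the TNF-α array as comparator. With that comparator the lower counts were 19 for matrix (33 as deposited), 31 for replication (16), 4 for TGF-beta and BMP (11) and 3 for cholesterol (12), and the higher count for p53 targets was 7 (12). Other lower counts with it were 22 for NF-κB targets (7), 8 for matrix proteases and inhibitors (5), 4 for receptors (2), 2 for Notch (4) and 2 for actin (4). A comparator that is itself treated is another contrast, not a repeat. Under these alternatives no named gene past 2-fold reversed. List medians of the other sign numbered 2 with medians aligned and 2 after quantile normalization (small heat shock and BCL2), 1 without a floor (BCL2), 2 with the highest probe set (small heat shock and sarcomere) and 11 of 52 with the TNF-α comparator, among them ribosome biogenesis (0.29 to -0.28), ribosomal proteins (0.29 to -0.08), MHC class I (0.23 to -0.41) and amino acid supply (-0.15 to 0.02). Motif shares were also taken over every listed gene with a window, including genes under the floor and genes without a value on these arrays. They were 24.6% for 2 heat shock units, 23.3% for the C/EBP-ATF element, 41.7% for the antioxidant core in NRF2 targets and 62.5% for TTTGAA. Of the 269 named genes 261 stayed on the same side of 2-fold with medians aligned and 253 after quantile normalization, while 205 did with the TNF-α comparator. All genes past 2-fold numbered 714 higher and 852 lower without a floor, 609 and 745 with both arrays above it, and 705 and 882 with the highest probe set. Probe sets of 1 gene show how far they disagree on the same 2 arrays, which does not measure the error between replicates. In 814 genes with several, the SD of their differences had a median of 0.24 and a 90th percentile of 0.73. Of 56 such genes past 2-fold 52 had all probe sets on the same side of 0 and 24 had all past 2-fold. Low signal limits the genes whose weaker array is under 5.06, where a fold is less certain and its error was not measured.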
